A study of Mus musculus with 2 samples.

Results

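The Mir322 cluster is a group of 7 miRNA genes (Mir322, Mir503, Mir351, Mir542, Mir450-2, Mir450-1 and Mir450b) that lie in a row on the X chromosome near Plac1, a gene named for its activity in placenta. The genes were taken by name from the GENCODE M21 annotation, with no threshold on their reads, and all 7 were found among the 1973 miRNA genes counted. Small RNA (a labelled size range under 30) was sequenced from the neural tube, from which brain and spinal cord form, of B6NCrl mouse embryos aged 12.5 days. The only group holds 2 biological replicates. Replicate 1 was a pool of 120 embryos and replicate 2 a pool of 88, male and female together. The proportion of the sexes in each pool is not stated, which limits what can be said of an X-linked locus. No other tissue, age or treatment was included, so the comparisons are those between the genes of the cluster, between the cluster and other miRNA genes, and between the replicate pools.

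A miRNA begins as a hairpin within a longer transcript. The enzyme Drosha cuts the hairpin out in the nucleus, Dicer trims it in the cytoplasm, and one arm of the resulting duplex, the mature miRNA, guides Argonaute to matching messenger RNAs. The bases near the 5′ end of the mature miRNA, its seed, do most of the target pairing. Hairpins of 1 primary transcript start from the same RNA, but their cropping, trimming and stability can differ. The miRNA miR-322, called miR-424 in human, and its neighbour miR-503 belong to the extended miR-15 and miR-16 family, which is known for repressing cell-cycle genes, and both have been studied in muscle differentiation.

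The sequences of the mature miRNAs show how the genes relate to each other. They were taken from RefSeq (GRCm38.p6), where all 7 genes were matched by symbol. The arms through which the genes resemble each other or other miRNA genes are shown 5′ to 3′, together with both arms of Mir542, with the seed (bases 2 to 8) in capitals.
miR-322-5p: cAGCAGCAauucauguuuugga
miR-503-5p: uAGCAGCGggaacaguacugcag
miR-351-5p: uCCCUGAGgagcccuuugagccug
miR-542-5p: cUCGGGGAucaucaugucacga
miR-542-3p: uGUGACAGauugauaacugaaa
miR-450a-5p: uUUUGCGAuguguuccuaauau
miR-450b-5p: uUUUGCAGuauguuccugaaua
miR-450a-1-3p: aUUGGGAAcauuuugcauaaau
miR-450a-2-3p: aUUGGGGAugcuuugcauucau
miR-450b-3p: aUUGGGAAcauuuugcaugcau

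The seeds of miR-322-5p and miR-503-5p differed by 1 substitution, A8G, counted from 1 at the 5′ end of miR-322-5p. Over the 22 positions compared these mature sequences had 11 differences, of which A8G was the only one in the seed. Differences here were counted position by position without gaps. The seed of miR-351-5p was that of miR-125a-5p and miR-125b-5p, which come from other chromosomal loci. The Mir450 genes formed a group of their own. The arm miR-450a-5p stood in both the Mir450-1 and the Mir450-2 hairpin, whereas miR-450b-5p differed from it at 7 of 22 positions, including G7A and A8G in the seed. On the other arm, miR-450a-1-3p and miR-450b-3p had the same seed and differed at 2 positions, A19G and A20C, while miR-450a-2-3p differed from miR-450a-1-3p at 6 positions and carried A7G in its seed.

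The hairpins of Mir450-1 and Mir450-2 are shown because their shared stretch bears on how their reads were counted. Capitals mark the longest run the hairpins share, 25 bases that contain the whole of miR-450a-5p.
Mir450-1: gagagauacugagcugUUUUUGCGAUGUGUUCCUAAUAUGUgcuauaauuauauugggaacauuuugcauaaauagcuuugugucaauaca
Mir450-2: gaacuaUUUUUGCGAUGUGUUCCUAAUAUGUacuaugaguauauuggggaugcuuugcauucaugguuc

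A read of miR-450a-5p therefore matches more than 1 place in the genome. The files hold a separate row for multimapping reads. If reads of miR-450a-5p are in that row, the values of Mir450-1 and Mir450-2 below do not include them, which could not be checked from counts. Each of the other mature sequences of the cluster was found in 1 annotated hairpin. By a looser measure, 20 shared bases in either orientation, Mir450-1 and Mir450-2 were again the only cluster genes that resembled another miRNA hairpin, namely each other. Among all 371 detected miRNA genes, 22.4% shared 20 bases with another. Mir450-1 and Mir450b shared a run of 19 bases, just under that limit. How many mismatches the aligner allowed is not given in the sources used here.

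On the mm10 assembly the cluster spans 6353 bases of the minus strand of the X chromosome, from 53047997 to 53054349. In the direction of transcription, Mir322 (53054255 to 53054349) comes first. Mir503 (53053984 to 53054054) follows after a gap of 200 bases and Mir351 (53053255 to 53053353) after a further 630. A wider gap of 3767 bases, in which the long noncoding RNA gene Gm28730 is annotated on the same strand, separates these from Mir542 (53049403 to 53049487). The Mir450 hairpins lie close together at the end, with Mir450-2 at 53048299 to 53048367, Mir450-1 at 53048154 to 53048244 and Mir450b at 53047997 to 53048078. None of the 7 hairpins overlaps an exon or intron of another gene annotated there. The noncoding transcript C430049B03Rik ends 696 bases upstream of Mir322 on the same strand, and Plac1 lies 15645 bases upstream. Whether the 7 hairpins come from 1 primary transcript was not measured in these libraries.

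All 7 genes were detected, that is, had at least 10 reads on their own strand in both libraries, against 18.8% of all miRNA genes counted and 35% of the 120 miRNA genes on the X chromosome. The cluster had 69217 reads in replicate 1 and 64337 in replicate 2. These made up 1.44% of the gene reads in replicate 1 (95% Clopper-Pearson interval 1.43 to 1.45) and 1.45% in replicate 2 (1.44 to 1.47), or 1.45% ± 0.00944 (SD, n = 2). With multimapping reads added to the denominator the share was 0.871%. Of the reads of all miRNA genes on the X chromosome, the cluster held 40.6% in replicate 1 and 43.2% in replicate 2 (41.9% ± 1.85). On the opposite strand no cluster gene had a read in either library, and 0 reads allow up to 0.625 reads per 1000000 gene reads (CPM) in replicate 1 and 0.678 in replicate 2. Intervals and floors cover counting error only. They treat reads as independent molecules, which reads amplified by PCR without molecular identifiers would not be.

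Output within the cluster was very unequal. Mir322 alone gave most of the reads, Mir351 came second, and the 5 other genes together gave few. Every value below is a level in CPM, the reads of a gene per 1000000 reads on all miRNA genes of the library. Levels of different genes are reads per gene. They were not divided by length, since libraries of this size range are made to capture mature miRNAs (21 to 24 bases in this cluster in RefSeq). Read lengths and positions were not examined here.

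Mir322, whose mature miR-322-5p carries the miR-15 and miR-16 seed, had 55107 reads in replicate 1 and 53184 in replicate 2. This corresponds to 11475 CPM in replicate 1 and 12025 CPM in replicate 2, a mean of 11750 ± 388.9 CPM (SD, n = 2). By assigned reads Mir322 ranked 16th of the 371 detected genes. Genes that share sequence with another may rank too low, since their multimapping reads may be uncounted. It held 79.6% of the cluster's reads in replicate 1 (95% Clopper-Pearson interval 79.3 to 79.9) and 82.7% in replicate 2 (82.4 to 83.0), or 81.1% ± 2.16. Its share was the main one in both pools.

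Mir503, the nearest neighbour of Mir322 and its relative by seed, had a level of 356.1 CPM in replicate 1 and 434.8 CPM in replicate 2 (395.4 ± 55.7, rank 121). Although the hairpins are 200 bases apart, Mir322 had 32.2 times as many reads as Mir503 in replicate 1 and 27.7 times as many in replicate 2 (29.9 ± 3.23). Mir503 held 2.73% ± 0.367 of the cluster's reads.

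Mir351, which carries the miR-125 seed, was the second gene by level, with 2282 CPM in replicate 1 and 1734 CPM in replicate 2 (2008 ± 387.4, rank 65). It lies downstream of Mir503, so levels did not fall steadily from the first hairpin on. Mir351 exceeded Mir503 by 6.41 times in replicate 1 and 3.99 times in replicate 2 (5.20 ± 1.71). Mir322 exceeded Mir351 by 5.03 times in replicate 1 and 6.93 times in replicate 2 (5.98 ± 1.35). Mir351 held 13.9% ± 2.77 of the cluster's reads, and the 3 hairpins at the upstream end together held 97.7% ± 0.242.

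Mir542, set apart by the wide gap, had 235.5 CPM in replicate 1 and 271.1 CPM in replicate 2 (253.3 ± 25.2, rank 149). It came closest to Mir503, which had 1.51 times its reads in replicate 1 and 1.60 times in replicate 2 (1.56 ± 0.0650). This was the narrowest step in the order of the 7 levels, and still above 1 by more than its spread. Mir542 held 1.75% ± 0.162 of the cluster's reads.

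The 3 Mir450 genes had the lowest levels, with 0.504% ± 0.0801 of the cluster's reads in all. Mir450b, the last hairpin in the row and the only one of the 3 with no arm shared in full, had 52.1 CPM in replicate 1 and 71.9 CPM in replicate 2 (62.0 ± 14.0, rank 224). Mir450-1 had 45 and 32 reads in replicates 1 and 2, or 9.37 and 7.24 CPM (8.30 ± 1.51, rank 319). Mir450-2 had 15 and 11 reads, or 3.12 and 2.49 CPM (2.81 ± 0.450, rank 367 of 371). These are reads that were assigned to 1 of the hairpins, and the levels may lack reads of miR-450a-5p, the arm both genes encode. Which arm gave the assigned reads cannot be told from counts per gene.

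The order from highest to lowest, Mir322, Mir351, Mir503, Mir542, Mir450b, Mir450-1 and Mir450-2, was the same in both libraries. Each ratio between neighbours in that order differed from 1 by more than its SD. Mir542 exceeded Mir450b by 4.15 ± 0.533 times, Mir450b exceeded Mir450-1 by 7.75 ± 3.10 times, and Mir450-1 exceeded Mir450-2 by 2.95 ± 0.0643 times (n = 2 each). With 2 libraries no exact test of such an order can go below p = 0.5, so none was made. From the highest to the lowest gene the range was 4254 ± 821.0 times, with 3674 times in replicate 1 and 4835 times in replicate 2. Among the 5 genes that share no 20 bases with another hairpin, Mir322 to Mir450b, it was 193.8 ± 37.6 times. The larger figure rests on the 2 hairpins with a common arm, whose reads may be among the multimapping ones. Libraries can take up some small RNAs better than others, which was not measured here, and the ratios hold for reads only.

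**Figure D1:**
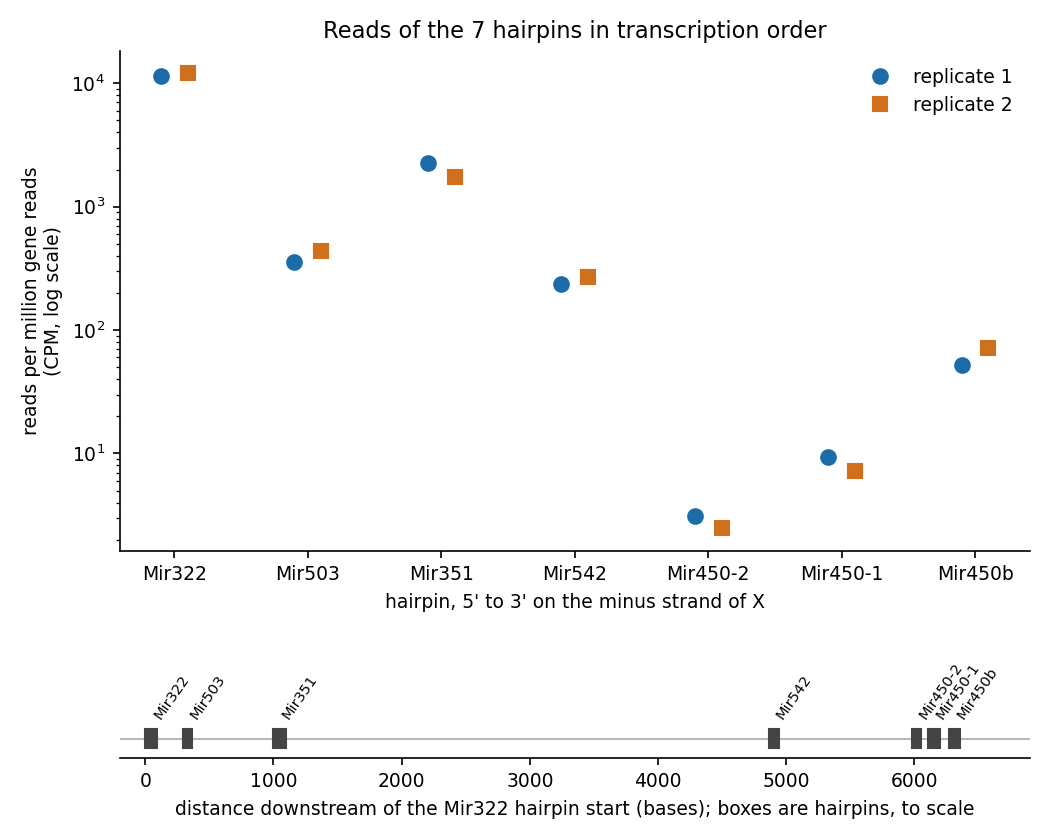
Upper panel: reads per 1000000 gene reads (CPM, log scale) of the 7 hairpins in each library, in transcription order, with circles for replicate 1 and squares for replicate 2. Lower panel: the hairpins to scale by distance in bases downstream of the start of Mir322. Mir322 stands near 11750 CPM, Mir351 rises above Mir503, and Mir450-2 and Mir450-1 lie under 10 CPM in both libraries.

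The hairpins also differed in base composition. The GC content was 51.6% in Mir322, 54.9% in Mir503, 50.5% in Mir351 and 51.8% in Mir542, close to the median of 50.5% over all detected hairpins. It was lower in the Mir450 hairpins, with 36.2% in Mir450-2, 33.0% in Mir450-1 and 30.5% in Mir450b. The predicted folding energy (RNAfold) per base ranged from -0.53 kcal/mol in Mir503 to -0.38 in Mir351, the second most abundant gene, and was -0.45 in Mir322, Mir542 and Mir450-1 alike. The levels did not follow this order. The part of base composition in the read counts was not tested.

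Unequal output was then set beside that of other miRNA gene clusters, defined as genes on 1 strand with gaps of at most 10 kb and at least 4 detected members. There were 8 such clusters. In the Mir322 cluster the leading gene held 81.1% of the reads, the highest share of the 8. Next came the Mir17 cluster on chromosome 14, which promotes proliferation, where Mir17 held 56.4% ± 0.639. In the imprinted cluster led by Mir487b on chromosome 12, with 31 detected genes, the leader held 24.2% ± 0.574. Another cluster on the X chromosome, led by Mir106a, which descends from the same ancestor as the Mir17 cluster, had a leader with 34.2% ± 2.84. The leader exceeded the second gene of its cluster 5.85 times in mean level for Mir322, against 2.38 times for Mir17 and 1.15 times for Mir106a. With clusters of 3 detected genes included, 14 in all, the share of Mir322 was second to that of Mir23a (96.2% ± 0.917), a cluster of 3 genes. All 3 share 20 bases with another hairpin, so some of their reads may be multimapping and uncounted.

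By the range from the highest to the lowest gene, the Mir322 cluster also came first of the 8, ahead of 2021 ± 553.5 times from Mir487b to Mir1197 and 1229 ± 3.87 times from Mir17 to Mir19b-1. This place rests on Mir450-2 and Mir450-1. Without hairpins that share 20 bases with another, the range of 193.8 times ranked 3 of 6 clusters, below 2021 times in the Mir487b cluster and 241.4 ± 3.44 times from Mir17 to Mir19a. Without such hairpins Mir322 held 81.2% ± 2.15 of the reads of its cluster, first of the 6. Mir450-1 and Mir450-2 have few assigned reads, so leaving them out could hardly change this share. It does not show what uncounted reads of miR-450a-5p would do to it. A cluster with more detected genes has more chances of a low one, so ranges of clusters of unequal size are given as a description.

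**Figure D2:**
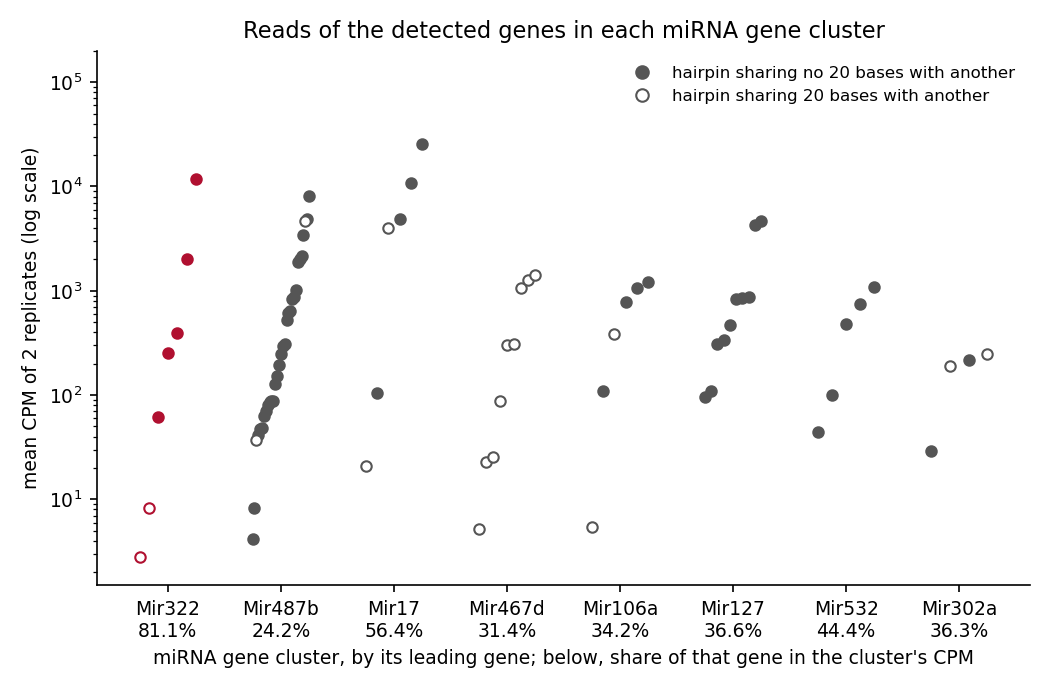
Mean CPM (log scale) of the detected genes in each of the 8 miRNA gene clusters, named by their leading gene, with the leader's share in percent below each name. Open circles are hairpins that share 20 bases with another. The Mir322 cluster (red) has the leader with the highest share, 81.1%, and its 2 lowest points are open circles.

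Other miRNA clusters of the X chromosome gave fewer reads. The 6 genes of the Mir106a cluster together held 0.356% ± 0.0141 of the gene reads, the 5 counted genes of the Mir188 cluster 0.247% ± 0.00962, and Mir98 with Mirlet7f-2 0.201% ± 0.0234. Mir374b and Mir421 held 0.109% ± 0.0162, and Mir221 with Mir222 0.0188% ± 0.00207. Each of these sums lay below the 1.45% of the Mir322 cluster in both libraries. Mir322 alone, at 11750 CPM, exceeded the summed 3561 CPM of the Mir106a cluster. Of these genes, Mir19b-2, Mir92-2 and Mirlet7f-2 share 20 bases with another miRNA gene, so some of their reads may be multimapping and uncounted.

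For miR-322-5p and miR-351-5p, detected genes elsewhere in the genome carry the same seed. Counts per gene hold both arms of a hairpin, so the shares below compare genes and not mature miRNAs. Of 10 other genes with the AGCAGCA seed of miR-322-5p in RefSeq, 9 were counted and 5 were detected. Of the reads of all counted genes with a mature miRNA of this seed, Mir322 held 65.3% in replicate 1 (95% Clopper-Pearson interval 65.0 to 65.7) and 66.9% in replicate 2 (66.6 to 67.3), or 66.1% ± 1.12. The mature sequences that share the seed are shown to make plain that they are alike there and differ beyond it.
miR-15a-5p: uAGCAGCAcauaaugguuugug
miR-15b-5p: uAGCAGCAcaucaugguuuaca
miR-16-5p: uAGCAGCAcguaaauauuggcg
miR-195a-5p: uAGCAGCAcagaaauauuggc

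Mir15a, the highest of these, had 3252 CPM in replicate 1 and 2859 CPM in replicate 2, and Mir322 exceeded it by 3.87 ± 0.479 times. Mir16-1 had 1462 ± 208.3 CPM, Mir15b 1070 ± 58.9 CPM, Mir16-2 275.2 ± 28.4 CPM and Mir195a 150.8 ± 3.18 CPM (n = 2 each). The miRNA miR-16-5p is encoded by both Mir16-1 and Mir16-2, so reads of it can be multimapping and missing from these values. The share of Mir322 among genes with its seed is therefore a share of assigned reads. Mir195b had no read in either library. Mir497b, a family gene by name, had 3 reads in replicate 1 and 1 in replicate 2.

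The CCCUGAG seed of miR-351-5p is that of the miR-125 family, which is abundant in the nervous system. Of 5 other genes with this seed, all were counted and 3 were detected. Counted position by position without gaps, miR-351-5p differed from miR-125b-5p at 12 of 22 positions, none of them in the seed. Such a count can list shifted stretches as differences.
miR-125a-5p: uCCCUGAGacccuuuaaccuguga
miR-125b-5p: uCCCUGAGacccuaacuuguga

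Of the reads of all counted genes with a mature miRNA of this seed, Mir351 held 25.1% in replicate 1 (95% Clopper-Pearson interval 24.7 to 25.6) and 25.5% in replicate 2 (25.03 to 26.0), or 25.3% ± 0.264. Mir125a had 5070 CPM in replicate 1 and 3419 CPM in replicate 2, so that Mir351 stood at 0.479 ± 0.0404 of its level. The ratio of Mir351 to Mir125a was 0.450 in replicate 1 and 0.507 in replicate 2. Mir351 lay above Mir125b-1 (901.5 ± 102.4 CPM) and Mir125b-2 (782.0 ± 45.5 CPM) in both libraries. The pair encodes the same miR-125b-5p, so reads of that arm may be multimapping and missing from both values. The share of Mir351 among genes with its seed is therefore also a share of assigned reads. The seeds of miR-503-5p, miR-542-3p and miR-450b-5p were found in no other gene of the RefSeq table. The seed of miR-542-5p was also that of miR-6966-5p, whose gene Mir6966 had 2 and 1 reads in replicates 1 and 2. The seed of miR-450a-1-3p and miR-450b-3p was also that of miR-6352, whose gene Mir6352 had no read in either library.

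**Figure D3:**
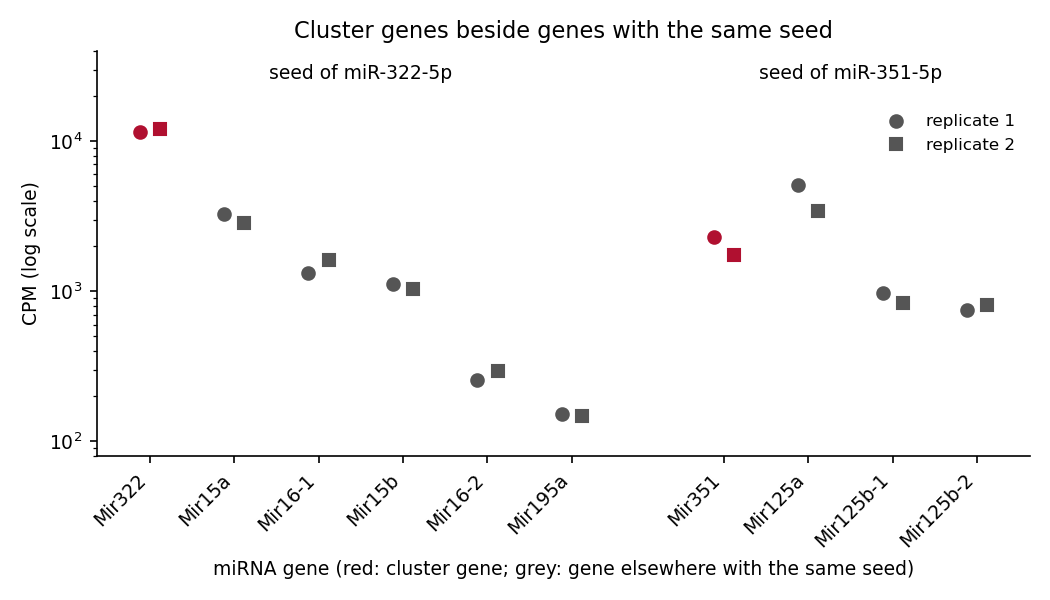
CPM (log scale) of Mir322 and Mir351 (red) beside the detected genes with the same seed (grey) in each library, with circles for replicate 1 and squares for replicate 2. Mir322 lies above every gene with its seed in both libraries, and Mir351 lies between Mir125a and the Mir125b genes. Values are assigned reads, and those of Mir16-1, Mir16-2, Mir125b-1 and Mir125b-2 may lack multimapping reads.

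The genes whose levels were nearest to those of Mir322 over the 2 libraries, by Euclidean distance of log2(CPM + 1), were Mir196b (distance 0.09), Mir26b (0.18) and Mir30e (0.18). Mir196b, a gene of a Hox cluster, had 11225 ± 420.1 CPM, Mir26b 12751 ± 66.1 CPM and Mir30e 12833 ± 739.3 CPM. With 2 libraries of 1 tissue this measures similar abundance and nothing more.

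To compare the replicate pools, a two-sided exact binomial test was run for each gene on TMM-scaled totals, with p-values adjusted by the Benjamini-Hochberg method over the 371 detected genes. The test compares 1 library with 1 other and not conditions, and its p-values, like the intervals, cover counting error only. Without a fold minimum, 5 of the 7 cluster genes passed at an adjusted p under 0.05, where 53.1% of all detected genes passed. Mir351 was higher in replicate 1 (26.1% of detected genes were), and Mir322, Mir503, Mir542 and Mir450b were lower there (27% were). With a minimum of 2-fold, 0 of the 7 passed, against 2.7% of detected genes.

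Mir351 was 1.28-fold higher in replicate 1 (log2 ratio 0.36, adjusted p = 1e-61, exact binomial). Mir322 lay in the other direction with a log2 ratio of -0.11 (adjusted p = 4.55e-33), a difference of 1.08-fold at 55107 and 53184 reads. Mir503 had a log2 ratio of -0.33, Mir542 of -0.24 and Mir450b of -0.50, the last being the largest of the cluster at 1.42-fold. Mir450-2 and Mir450-1 had log2 ratios of 0.29 and 0.33 on few reads and did not pass (adjusted p = 0.778 and 0.484, exact binomial).

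These differences are near the usual spread between the libraries. The common coefficient of variation over detected genes was 16.4%. A log2 ratio between the libraries then has an SD of 0.33 before counting error, which adds most for genes with few reads. Of the 7 genes, 3 (Mir351, Mir450-1 and Mir450b) lay beyond 1 such SD, as did 32.6% of all detected genes. Mir450-1 did so only at 1.001 SD and on 45 and 32 reads, where counting error widens the spread. The SD was fitted to these same detected genes, so the 32.6% is no separate yardstick. The median absolute log2 ratio was 0.33 in the cluster and 0.24 over all detected genes. The log2 ratio was above 0 for 3 genes of the cluster and below 0 for 4, while the summed share of the cluster was 1.44% in one pool and 1.45% in the other.

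**Figure D4:**
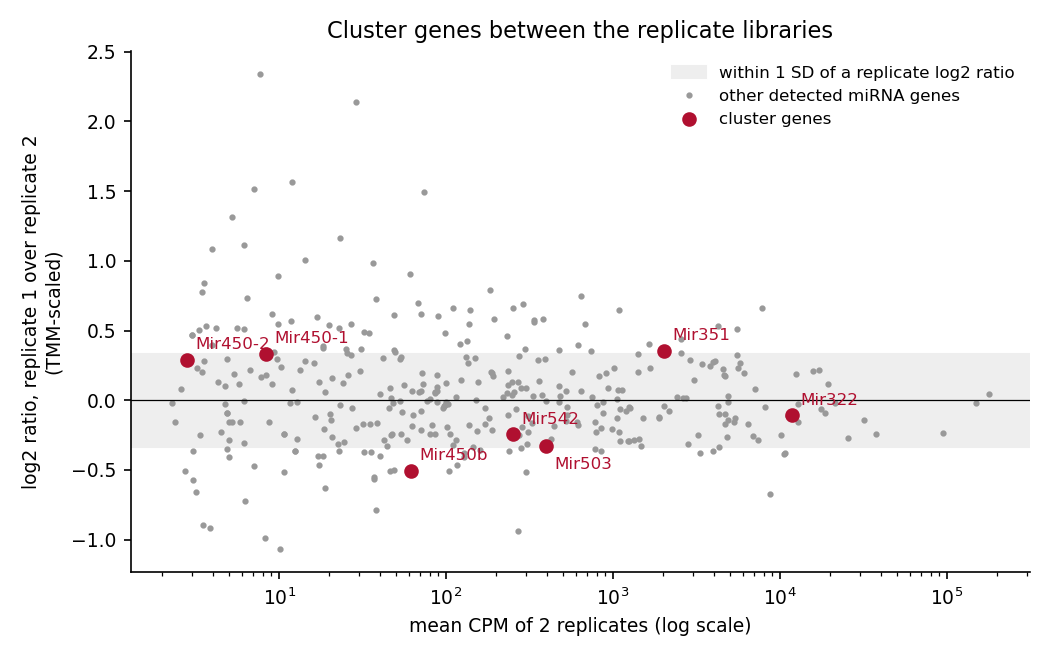
Log2 ratio of replicate 1 over replicate 2 (TMM-scaled) against mean CPM (log scale) for the 371 detected miRNA genes, with the 7 cluster genes in red. The grey band is 1 SD (0.33) of a replicate log2 ratio without counting error, so it is too narrow for genes with few reads. Mir450-1 lies at the upper edge of the band, Mir351 at 1.07 SD above 0 and Mir450b at 1.51 SD below it, and no cluster gene reaches 2-fold.

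The tissue label was checked against marker genes. Mir10a and Mir10b, from the Hox clusters that pattern hindbrain and spinal cord, and 8 further counted neural tube markers together held 33.1% ± 0.838 of the gene reads, and 8 of the 10 were detected. Nearly all of this came from Mir10a (178286 ± 7283 CPM) and Mir10b (149286 ± 1538 CPM), so the sum says little about the other markers listed. Of those, Mir137 had 2809 ± 379.0 CPM, Mir9-3 283.1 ± 21.1 CPM and Mir218-2 281.2 ± 41.7 CPM. Mir218-1 had 40.2 ± 7.09 CPM and Mir9-2 3.95 ± 2.07 CPM. The Mir9 and Mir218 genes share 20 bases with another hairpin, so some of their reads may be uncounted. Mir124a, the classical neuronal miRNA, was near 0 in assigned reads (at most 9.71 CPM, for Mir124a-2), and its 3 genes share sequence. Markers of other tissues were present too. The 7 mesenchyme markers (6 detected) held 1.67% in replicate 1 and 1.55% in replicate 2, the endothelial Mir126a 2.03% and 1.83%, and the 6 blood markers (all detected) 0.0461% and 0.0404%. The striated muscle markers, of which 4 of 7 counted genes were detected and Mir133a-1 and Mir133a-2 were at 0 assigned reads, held 0.0882% in replicate 1 and 0.0520% in replicate 2. Their part in the levels of the cluster was not tested. In bulk tissue, fewer cells of a type and less RNA per cell cannot be told apart, and the cells in which the cluster is active were not resolved.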

How the data were processed

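For each library the authors deposited raw read counts per miRNA gene for both strands together and for each strand, without normalization. Per the deposited descriptions they were made on mm10 with annotation M4 from that library's alignment. The aligner and counter are not given here by any source used, nor is the trimming. Rows naming no gene were left out: in replicates 1 and 2, unmapped reads were 27.3% and 20.0% of all reads, reads listed as mapping to several places 27.0% and 28.6%, and reads on no feature 8.04% and 4.45%. Own-strand gene reads (the strand column with the higher total) numbered 4802411 and 4422853.

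Symbols and coordinates came from GENCODE M21 (GRCm38, 1894 of 1973 identifiers matched) and mature sequences from RefSeq. CPM used own-strand gene totals, and the log scale log2(CPM + 1). Errors are the SD of 2 replicates. edgeR's quasi-likelihood test needs 2 groups and was not applied. TMM factors and the common dispersion came from edgeR 4.0.16, alternative size factors from DESeq2 1.42.0 (R 4.3.3). Other tools were Python 3.11.15, numpy 2.4.6, pandas 2.3.3, scipy 1.17.1, matplotlib 3.10.9 and RNAfold 2.7.2. The exact binomial test was checked on simulated counts with counting error only. The simulation left out the further variation found between these libraries, so the check does not cover it. Alternatives were other denominators, the both-strand column, other read minimums, other scaling, other cluster definitions and each replicate alone.

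The genes and lists were chosen with earlier results of these data known. Named are the 7 genes, the Mir15, Mir16 and Mir125 seed families, 5 X-linked cluster lists, tissue markers, the 3 genes nearest to Mir322 in level, and the 3 clusters of widest range with their first and last genes. Of these, 7 of 9 listed symbols of the Mir15 and Mir16 family matched a counted gene. Mir23a, Mir19a, Mir6966 and Mir6352 were named after their values were seen.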

Additional observations from a re-analysis of the deposited data

How the results depend on the processing

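No value reversed under the alternatives run. With 2 replicates, a value from 1 alone cannot lie beyond their SD, and the cluster genes have 0 opposite-strand reads, so shares and ratios within the cluster cannot change with the both-strand column. Neither shows stability. With multimapping reads added to the denominator, the cluster's share of 1.45% became 0.871%, and each gene's CPM fell by the same factor within a library. With the both-strand column the share was 1.42%. Without 1 replicate it was 1.44% to 1.45%. Per base of hairpin, an alternative added after the data were seen, the ratio of Mir322 to Mir503 was 22.4, to Mir542 41.6 and to Mir450-2 3090. Without hairpins sharing 20 bases, the range was 193.8 times and ranked 3 of 6 clusters. With clusters of 3 detected genes the leader's share came second of 14. With at least 100 reads in both libraries, 2 genes, neither of this cluster, were at least 2-fold apart in place of 10, and 5 of the 7 cluster genes had that depth. The number of cluster genes past the exact binomial test was 5 under every scaling and filter run. No paired analysis was possible because there is only 1 group. The low counts of Mir450-1 and Mir450-2 limit their precision.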
